A study of Mus musculus with 8 samples.

Results

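The nuclear genes for respiratory complexes I, II, III and V were described in mouse hippocampus. Members were taken by gene name alone, as the Nduf genes of the a, b, c, s and v series, the 4 Sdh genes, the Uqcr genes, Cyc1 and the Atp5 genes, leaving out names that end in -ps. This gave 67 rows of 66 gene symbols among 55188 genes. There were 36 genes of complex I, 4 of complex II, 9 of complex III and 17 of complex V. Atp5o had a second row (ENSMUSG00000116933, chromosome 16, 91684398 to 91926982 in mm10) that overlaps the main Atp5o row and several neighbouring genes. That row stood at 0.863 to 2.63 FPKM, so levels and medians below are over the other 66 genes.

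Oxidative phosphorylation passes electrons from NADH (complex I) and succinate (complex II) through complex III and complex IV to oxygen. Complexes I, III and IV pump protons across the inner mitochondrial membrane, and complex V, the ATP synthase, uses the returning protons to make ATP. Neurons draw most of their ATP from this chain, and the subunits encoded in the nucleus are made in the cytosol and imported. Complexes I and III to V also hold subunits encoded in mitochondrial DNA, while complex II is wholly nuclear.

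RNA was sequenced from the hippocampus of C57BL/6 mice before fear conditioning, in 2 numbered units labelled KO for Pyk2 (KO1, KO2) and 2 numbered wild-type units (WT1, WT2). Ptk2b is the gene for Pyk2, a tyrosine kinase activated by calcium. Each unit had 2 technical replicates and was treated as 1 animal, 4 libraries a group. The labels call the mice of both groups transgenic and give neither the allele, the age nor the sex. They do not say whether different numbers are different mice, and p-values then measure only the spread between these units.

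The deposited values are FPKM, fragment numbers scaled by transcript length and library size. The libraries listed 26483 to 27873 genes above 0 and summed to 489153 to 506251 FPKM. Read numbers are unknown. Ptk2b was not lower under the KO label. It stood at 264.4 to 279.3 FPKM in the KO-labelled libraries and 201.6 to 232.2 FPKM in WT libraries, higher with no overlap. It averaged 273.5 ± 6.33 FPKM in the KO-labelled animals and 217 ± 21.0 FPKM in WT animals (SD, n = 2 each), and the difference did not pass (limma, Benjamini-Hochberg adjusted p = 0.158), so every direction below is that of the label. The hippocampal neuron markers were present in every animal, summing to 2931 and 3062 FPKM in the KO-labelled animals and 2627 and 2730 FPKM in WT animals. These groups do not overlap, and 5 of the 12 were higher at an unadjusted p under 0.05, with 0 called. Of 11 glia markers 10 had a difference above 0 and 0 were called; they summed to 3295 and 2943 FPKM in the KO-labelled animals and 2998 and 2811 FPKM in WT animals, which overlap. Choroid plexus markers moved the other way. Their summed level was 313 and 1288 FPKM in the KO-labelled animals and 4404 and 7724 FPKM in WT animals, with 20 of 20 lower under the KO label, 0 of them called and none at 0. The 5 blood markers summed to 149 and 158 FPKM in the KO-labelled animals and 287 and 317 FPKM in WT animals. All 5 were lower at an unadjusted p under 0.05 in limma. Of them 2 were called, Hba-a1 and Hba-a2 (limma, adjusted p = 0.0372 and 0.0373). The part of these cells in the differences below was not tested, and fewer cells of a type cannot be told apart from less RNA per cell.

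All 66 genes were strongly expressed. Their median was 118 FPKM, against 7.13 FPKM over all 16667 genes that reached 0.5 FPKM in 2 animals. Together they made up 1.76% to 1.84% of a library's FPKM. The 1.84% is that of the first library of KO1, whose sum lacks mt-Co1, and the other libraries reached at most 1.80%. The highest was Atp5b, the catalytic beta subunit of the ATP synthase, at a mean of 586 FPKM over the 4 animals, and the lowest was Ndufb4, an accessory subunit of the membrane arm of complex I, at 37.9 FPKM. Subunits of 1 complex did not share 1 mRNA level. Within complex I the range ran over 8.61-fold and was topped by Ndufa4 at 326 FPKM, a protein first assigned to complex I and now placed in complex IV. The other complexes ranged over 6.90-fold (complex V, down to Atp5g2 at 84.8 FPKM), 3.42-fold (complex III, from Uqcrh at 234 to Uqcrfs1 at 68.2 FPKM) and 2.29-fold (complex II, from Sdha at 122 to Sdhd at 53.1 FPKM). Many neighbours in these orders were not separated. The 4 animals of neighbouring genes overlapped for 26 of 35 neighbours in complex I, 8 of 16 in complex V and 4 of 8 in complex III, and for 0 of 3 in complex II.

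**Figure D1:**
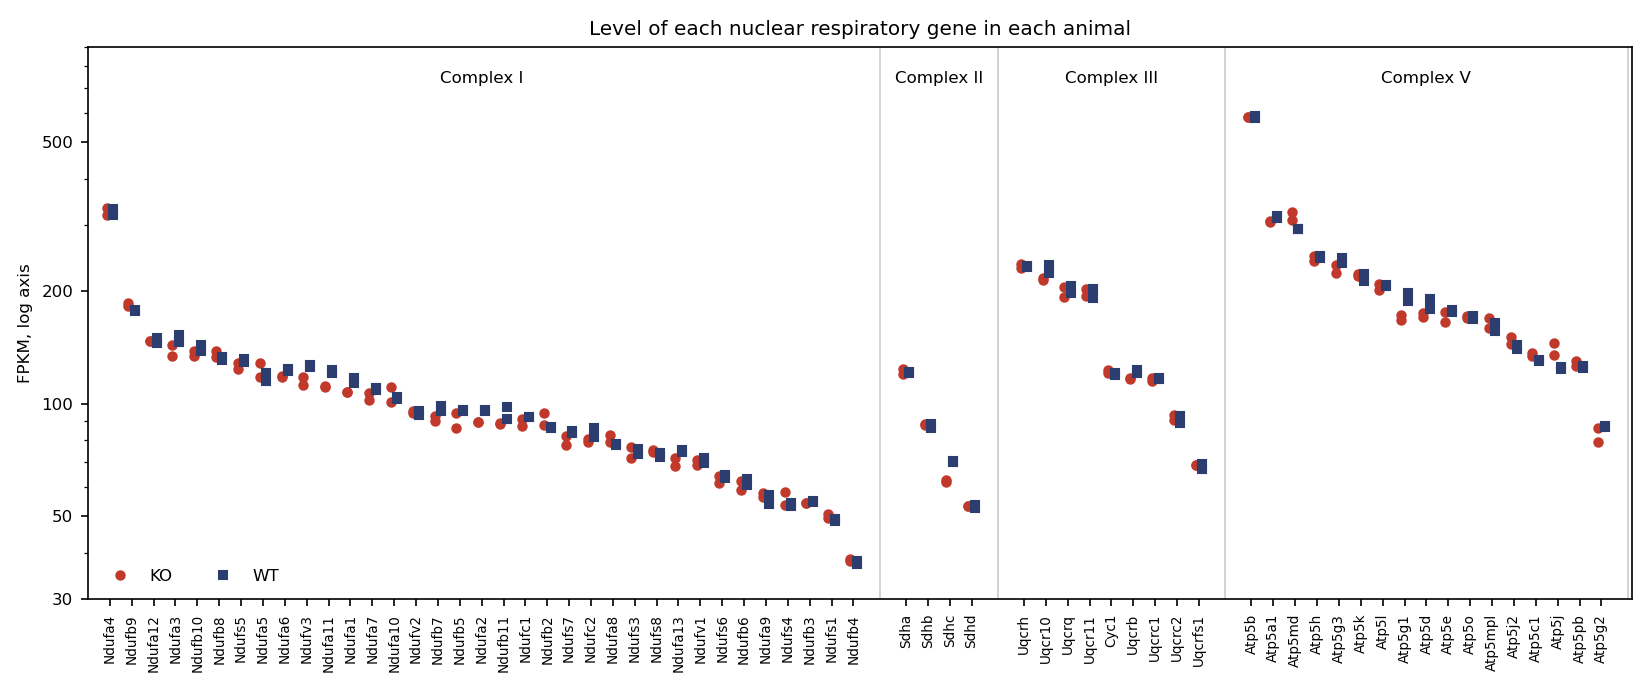
Level of each gene in each animal in FPKM (log axis), with KO-labelled animals as circles left of WT animals as squares, and genes ordered by mean within each complex; 1 gene is not drawn. The animals of both labels lie close together at every level, from Atp5b near 586 FPKM to Ndufb4 near 37.9 FPKM.

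Promoter windows from RefSeq (GRCm38.p6, 250 bases before to 50 after a transcript start) were matched for 55 of the 66 genes, some of which have several starts (60 windows in all); a gene counts when any of its windows matches. They were searched on both strands for 3 motifs known from nuclear respiratory genes: GCGC, any base and TGCGC for NRF1, CCGGAAG for GABP and AAGATGGC for YY1. None of the 3 motifs contains another. NRF1 letters stood in the windows of 16 genes (29.1%), against 10.9% of the 10794 protein-coding genes tested that have a window and 5.19% of all 27025 genes with one. For GABP the counts were 14 genes (25.5%, against 18.5% and 9.93%), for YY1 10 genes (18.2%, against 4.91% and 3.19%), and for any of the 3 motifs 35 genes (63.6%, against 30.2% and 16.4%). A match is a description of letters and not a site. The bases before the start are shown for 3 genes taken up again below: Atp5j, the member furthest above 0, with a YY1 and a GABP match in 1 of its 2 windows; Sdha, with 3 NRF1 matches on the reverse strand; and Atp5g1, the member furthest below 0, whose window holds none of the 3. All are written 5′ to 3′ on the gene's own minus strand, and capitals mark the matches.
Atp5j, chr16:84834977-84835226: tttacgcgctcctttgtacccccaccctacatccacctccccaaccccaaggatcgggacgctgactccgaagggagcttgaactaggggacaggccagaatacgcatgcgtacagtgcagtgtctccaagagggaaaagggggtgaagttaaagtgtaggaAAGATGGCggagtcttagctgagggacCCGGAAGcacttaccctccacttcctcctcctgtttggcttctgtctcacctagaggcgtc
Sdha, chr13:74350241-74350490: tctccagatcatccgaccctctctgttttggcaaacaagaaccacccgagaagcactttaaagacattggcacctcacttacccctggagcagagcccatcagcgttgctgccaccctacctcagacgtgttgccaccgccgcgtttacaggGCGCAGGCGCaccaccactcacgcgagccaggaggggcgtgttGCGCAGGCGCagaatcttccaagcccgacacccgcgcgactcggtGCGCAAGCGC
Atp5g1, chr11:96075632-96075881: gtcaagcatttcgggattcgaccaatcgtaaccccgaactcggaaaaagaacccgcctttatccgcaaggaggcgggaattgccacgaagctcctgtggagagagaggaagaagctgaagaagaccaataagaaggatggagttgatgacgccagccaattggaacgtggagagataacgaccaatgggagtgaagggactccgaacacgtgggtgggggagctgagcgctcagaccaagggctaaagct
RefSeq gives Atp5j 2 windows. The one at the start of its annotated span (chr16:84835576-84835875) holds none of the 3 motifs, and the one shown belongs to a start inside the span. In the shown Atp5j window the YY1 letters begin 88 bases before the start and the GABP letters 61 bases before it. In the Sdha window the NRF1 matches begin 98, 55 and 10 bases before the start. The shown Atp5j window lies where the annotated spans of Atp5j and Gabpa overlap head to head; Gabpa encodes a subunit of GABP itself.

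No respiratory gene was called between the labels. In limma on log2(FPKM + 1), fitted over all 16667 genes, 0 of 67 rows passed an adjusted p of 0.05, where 0.054% of all genes did. The smallest adjusted p was 0.144 with Benjamini-Hochberg adjustment. At an unadjusted p under 0.05 there were 2 higher and 6 lower rows, 8 of 67, where 15.5% of all genes reached it (4.11% higher and 11.4% lower). That split follows the scaling, at 4 higher and 2 lower with median-of-ratios scaling and 2 higher and 13 lower with quantile normalization. The 2 KO-labelled animals lay outside the 2 WT animals for 36 of 67 rows, 12 higher and 24 lower, where 49.1% of all genes did (18.4% higher and 30.7% lower). All 4 libraries lay outside the other 4 for 19 rows, 6 higher and 13 lower, against 20.1% of all genes (7.11% higher and 13% lower). These totals are near the shares over all genes. Among the 2635 genes with a mean of at least 30 FPKM the lean was the other way. There, 337 were higher and 174 lower at an unadjusted p under 0.05 in limma. The 2 KO-labelled animals lay above both WT animals for 969 of them and below for 485. With 2 animals against 2, an exact permutation test cannot go below p = 0.333.

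The differences were small as well as uncalled. The median log2 difference, KO label minus WT, was -0.01, beside -0.02 over all genes tested and 0.03 over the 2635 genes with a mean of at least 30 FPKM. It was 0.04 beside 0.02 over all genes with median-of-ratios scaling, and -0.03 beside 0.03 with quantile normalization, so its place relative to all genes turned with the scaling. Single genes ran from -0.18 to 0.17, and the median size was 0.048, against 0.078 over all genes. For 58 of 66 genes the difference was under 0.1. The 95% interval of every one of the 66 genes lay within 0.3 of 0 on either side and that of 53 within 0.2, so these libraries allow changes up to those bounds. On the log2 scale the 2 technical replicates of an animal differed by a median of 0.039. The 2 animals of a group differed by a median of 0.040. These values compare single libraries and single animals, while the difference between labels compares means of 2 animals, which vary less. The sizes are therefore not directly comparable.

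**Figure D2:**
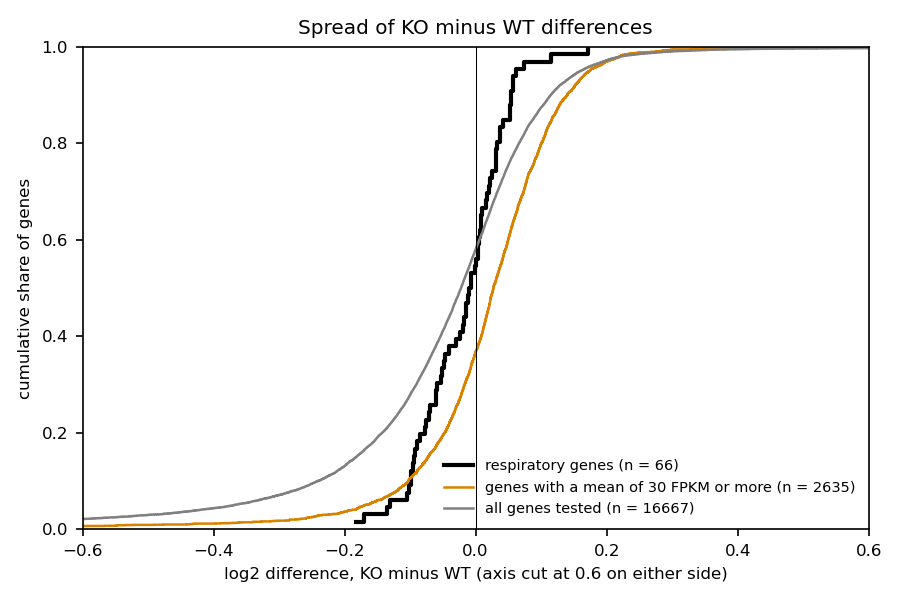
Cumulative share of genes (y axis) by log2 difference, KO label minus WT (x axis), for the 66 respiratory genes (black), the 2635 genes with a mean of at least 30 FPKM (orange) and all 16667 genes tested (grey). The black curve lies within -0.18 and 0.17, and the grey curve runs past it on both sides. The x axis is cut on both sides, as all genes tested run from -3.49 to 3.61.

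Complex I, NADH dehydrogenase, has core subunits that carry the flavin and the iron-sulfur clusters, and accessory subunits around them. Of its 7 nuclear core genes, 4 had a difference above 0 and 3 below (6 and 1 with median-of-ratios scaling, 3 and 4 with quantile normalization). Their summed level was 542 and 536 FPKM in the KO-labelled animals and 538 and 538 FPKM in WT animals, so the groups overlapped. Ndufs7, which holds the last iron-sulfur cluster before ubiquinone, had the smallest p of the 7. It stood at 84.5, 79.4, 79.7 and 75.5 FPKM in the KO-labelled libraries and 84.4, 82.9, 88.8 and 80.4 FPKM in WT libraries. The highest library under the KO label lies above 3 of the 4 WT libraries, and the log2 difference of -0.08 (SE 0.04) did not pass (limma, adjusted p = 0.445). Log2 differences were 0.03 for Ndufs1 and 0.03 for Ndufs8, which carry iron-sulfur clusters, -0.01 for Ndufs3, 0.01 for Ndufv2 and -0.02 for Ndufv1, the subunit that binds NADH.

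Of the 28 accessory genes 19 had a difference below 0 and 9 above, with a median of -0.05. Below 0 lay 58.0% of all genes tested and 36.8% of those with a mean of at least 30 FPKM. With median-of-ratios scaling the split was 14 and 14, while 44.9% of all genes lay below 0. With quantile normalization it was 20 below and 8 above, while 41.1% of all genes lay below 0. The 4 complex I genes with an unadjusted p under 0.05 are all accessory, lower under the KO label and outside the WT range in every library: Ndufv3, Ndufa11, Ndufa1 and Ndufa2. Ndufv3, a subunit of the NADH-oxidising tip, stood at 114, 111, 119 and 116 FPKM in the KO-labelled libraries and 124, 127.5, 131.5 and 123 FPKM in WT libraries. The groups do not overlap. The log2 difference was -0.14 (SE 0.04, 95% interval -0.24 to -0.03) and did not pass (limma, adjusted p = 0.235). Ndufa11, in the membrane arm, stood at 108, 115, 109 and 113 FPKM in the KO-labelled libraries and 120.5, 121, 122 and 124.5 FPKM in WT libraries. Its groups do not overlap either, and the log2 difference was -0.13 (SE 0.03, limma adjusted p = 0.207). Its span overlaps that of Vmac. Ndufa1 (-0.10) and Ndufa2 (-0.10), named here after their values were seen, had adjusted p of 0.275 and 0.279 in limma. Ndufa4 (326 ± 9.79 FPKM under the KO label and 326 ± 8.01 FPKM in WT, SD, n = 2 each) and Ndufb4 (38.2 ± 0.270 and 37.5 ± 0.497 FPKM in the same order), the extremes of level, differed by 0.00 and 0.03 on the log2 scale.

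A ratio of sums within 1 library is free of any scaling by 1 factor per library, though not of quantile normalization. The accessory sum was 5.12, 5.14, 5.10 and 5.07 times the core sum in the KO-labelled libraries and 5.28, 5.18, 5.24 and 5.28 times in WT libraries. All 4 KO-labelled libraries lie below all 4 WT libraries, with a difference of -2.61% between the means of animals (5.11 ± 0.0321 in the KO-labelled animals, 5.25 ± 0.0181 in WT animals; SD, n = 2 each) and of -2.67% after quantile normalization. That accessory sum includes Ndufv3, Ndufa11, Ndufa1 and Ndufa2, and the ratio was not computed without them. It therefore partly restates their differences and does not show a shift of the other accessory genes. The 7 subunits encoded in mitochondrial DNA were set against the nuclear core and accessory genes together, without Ndufa4. They summed to 7.18 ± 0.0754 times that sum in the KO-labelled animals and 7.26 ± 0.211 times in WT animals, and these overlapped. The whole complex I sum, with Ndufa4, was 3619 ± 52.4 FPKM under the KO label and 3687 ± 19.2 FPKM in WT. This ratio of 0.982 turned above 1, to 1.01, under median-of-ratios scaling.

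**Figure D3:**
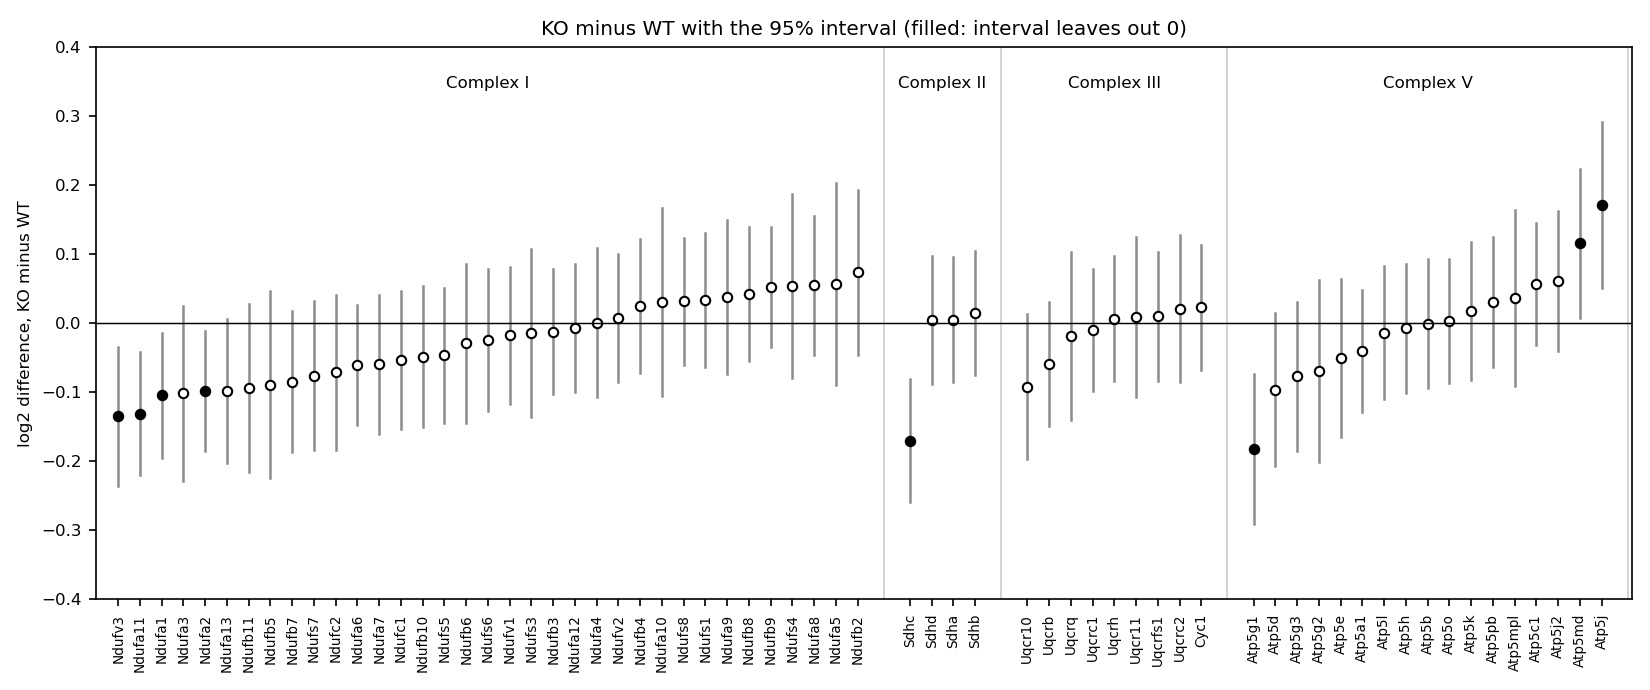
Log2 difference, KO label minus WT (y axis), with its 95% interval from limma for each gene, ordered within each complex; 1 gene is not drawn. Filled points are the 8 genes whose interval leaves out 0; none of them passed after adjustment, and every interval lies within 0.3 of 0.

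Complex II, succinate dehydrogenase, also works in the citrate cycle. Among its 4 genes, 3 hardly differed and 1 stood apart. Sdhc, an anchor subunit that binds ubiquinone and heme with Sdhd (ENSMUSG00000058076, chromosome 1, 171127165 to 171150603 in mm10), stood at 60.7, 63.0, 61.4 and 63.7 FPKM in the KO-labelled libraries and 71.55, 69.2, 70.7 and 69.0 FPKM in WT libraries. The highest KO-labelled library lies below the lowest WT library. The means were 62.2 ± 0.498 FPKM in the KO-labelled animals and 70.1 ± 0.336 FPKM in WT animals (SD, n = 2 each), a difference of -11.3%. The log2 difference of -0.17 (SE 0.03, 95% interval -0.26 to -0.08) had the smallest p of all 66 genes and did not pass (limma, adjusted p = 0.144). The span of Sdhc overlaps no other annotated gene.

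Sdha, the flavoprotein that oxidises succinate and whose promoter holds the 3 NRF1 matches shown above, averaged 122 ± 2.28 FPKM in the KO-labelled animals and 121.5 ± 0.541 FPKM in WT animals (SD, n = 2 each). Sdhb, the iron-sulfur subunit, averaged 88.2 ± 0.428 and 87.3 ± 1.28 FPKM in the same order, and Sdhd 53.2 ± 0.0810 and 53.1 ± 0.737 FPKM. Their log2 differences lay between 0.00 and 0.02, and the groups of each overlapped. Set against the other 3 genes in the same library, Sdhc was 0.232, 0.241, 0.234 and 0.238 times their sum in the KO-labelled libraries and 0.274, 0.266, 0.271 and 0.261 times in WT libraries. The groups do not overlap, and the mean ratio differed by -11.8% under the KO label. Sdhc had the smallest p of the members and the other 3 genes hardly differed, so this ratio restates the same difference and is no separate support.

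Complex III, which passes electrons from ubiquinol to cytochrome c, had the narrowest range of log2 differences of the 4 complexes. None of its 9 genes reached an unadjusted p of 0.05, and the log2 differences ran from -0.09 to 0.02. Uqcr10, a small subunit, had the smallest p. It stood at 216.5, 211, 213 and 220.0 FPKM in the KO-labelled libraries and 224, 223, 232 and 238 FPKM in WT libraries. These groups do not overlap, and the difference of -0.09 (SE 0.04) did not pass (limma, adjusted p = 0.368). The catalytic subunits Cyc1 (cytochrome c1) and Uqcrfs1 (the Rieske iron-sulfur protein), the core protein Uqcrc2 and the hinge protein Uqcrh had log2 differences of 0.02, 0.01, 0.02 and 0.01. Each of these 4 overlapped between the groups.

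Complex V makes ATP in its F1 head, driven by a membrane-embedded ring of c subunits that turns against a stator held by the peripheral stalk. Its summed level hardly differed, at 3595 ± 44.7 FPKM in the KO-labelled animals and 3603 ± 30.6 FPKM in WT animals (SD, n = 2 each). Its parts did not all lean the same way. In the F1 head, Atp5b averaged 585.5 ± 1.39 FPKM in the KO-labelled animals and 586 ± 6.15 FPKM in WT animals. Atp5d, the delta subunit of the central stalk, had the smallest p of the 5 F1 genes. It stood at 170.5, 172, 172 and 178 FPKM in the KO-labelled libraries and 180, 180, 190 and 191 FPKM in WT libraries, with no overlap, and its difference of -0.10 (SE 0.04) did not pass (limma, adjusted p = 0.371).

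The c ring is built from 1 mature protein that 3 genes encode, Atp5g1, Atp5g2 and Atp5g3, which differ in the import sequence that is cleaved off. All 3 had lower means under the KO label, under each scaling tried, and the 2 KO-labelled animals lay below both WT animals for each. The same held for 30.7% of all genes and for 485 of the 2635 genes with a mean of at least 30 FPKM. Atp5g1 (ENSMUSG00000006057, chromosome 11, 96068852 to 96075670 in mm10) stood at 159, 176, 168 and 177 FPKM in the KO-labelled libraries and 187, 190.0, 200.5 and 195 FPKM in WT libraries. The groups do not overlap. The log2 difference of -0.18 (SE 0.04, 95% interval -0.29 to -0.07) was the lowest of all 66 genes and did not pass (limma, adjusted p = 0.174). Atp5g3 averaged 229 ± 7.34 FPKM in the KO-labelled animals and 242 ± 5.44 FPKM in WT animals, and Atp5g2 82.8 ± 5.02 and 86.8 ± 0.178 FPKM in the same order (SD, n = 2 each). Their differences of -0.08 and -0.07 had adjusted p of 0.437 and 0.566 in limma. For Atp5g2 the difference rests on KO1: KO2 stood at 86.4 FPKM beside 86.7 FPKM in WT2, its libraries overlap those of WT, and without KO1 the log2 difference was -0.008.

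Summed over the 3 genes, c subunit mRNA was 482 ± 1.69 FPKM in the KO-labelled animals and 522 ± 11.8 FPKM in WT animals (SD, n = 2 each), a ratio of 0.924. Against the F1 sum of the same library it was 0.345, 0.356, 0.352 and 0.353 in the KO-labelled libraries and 0.372, 0.372, 0.377 and 0.377 in WT libraries. All 4 KO-labelled libraries lie below all WT libraries, a difference of -6.13% between the means of animals (-7.29% after quantile normalization, and -3.55% without Atp5g1). Within the c ring, Atp5g1 supplied 35.3% ± 0.708 of the sum in the KO-labelled animals and 37.0% ± 0.413 in WT animals, Atp5g2 17.2% ± 0.980 and 16.6% ± 0.409, and Atp5g3 47.6% ± 1.69 and 46.4% ± 0.00417, each in the same order (SD, n = 2 each). Every KO-labelled library had a lower Atp5g1 share (33.6% to 36.2%) than any WT library (36.3% to 37.6%). The nearest libraries barely separate, at 36.25% and 36.32%. The shares of the other 2 genes overlapped. Atp5g1 was the member furthest below 0, so its share restates that difference and is no separate support.

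**Figure D4:**
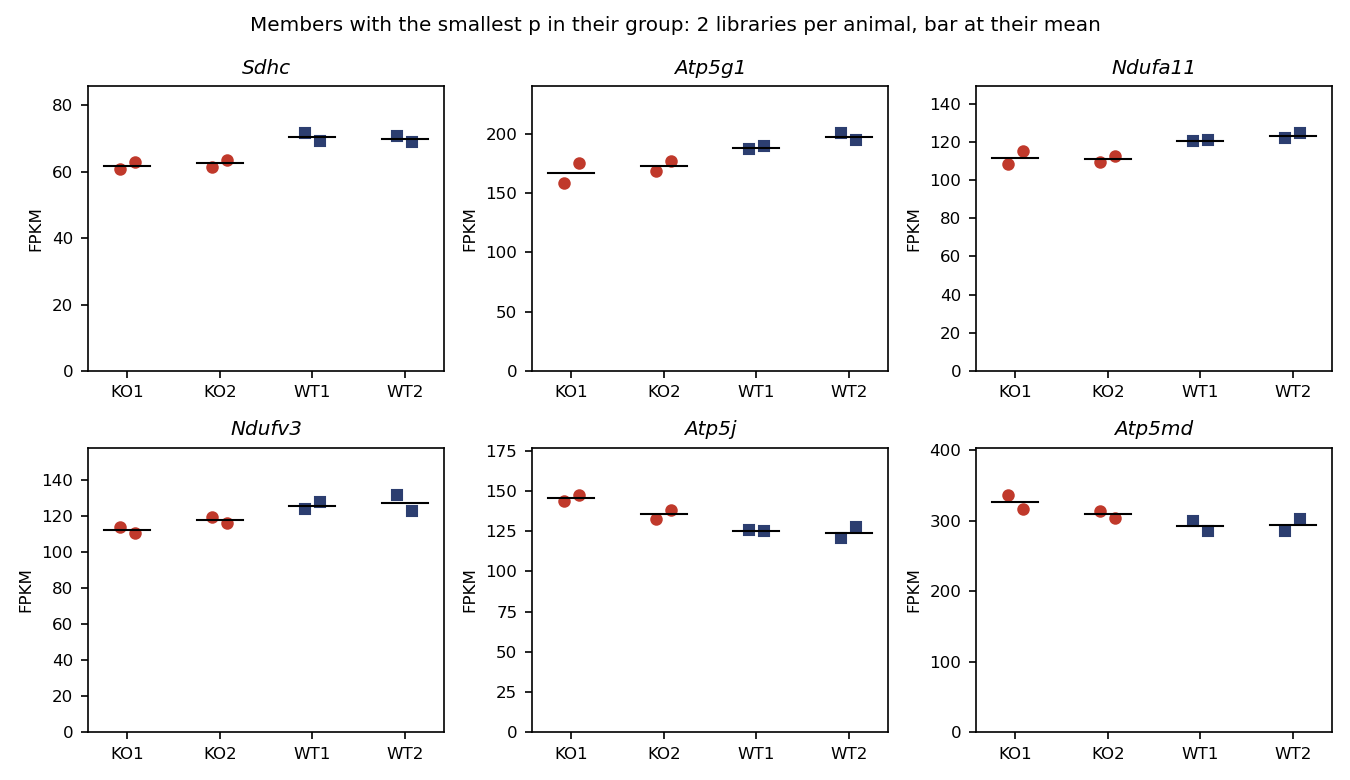
FPKM (y axis, from 0) in each library of the KO-labelled animals (circles) and WT animals (squares) for 6 genes with the smallest p in their subunit group, with a bar at each animal's mean. Sdhc, Atp5g1, Ndufa11 and Ndufv3 lie lower and Atp5j and Atp5md higher in all 4 KO-labelled libraries.

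Of the 4 peripheral stalk genes 3 had a difference above 0, and of the 5 small membrane subunits 4; with quantile normalization these were 1 and 2. Atp5j, the stalk subunit known as coupling factor F6 (ENSMUSG00000022890, chromosome 16, 84827866 to 84835625 in mm10), 1 of whose 2 promoter windows is shown above, stood at 144, 147, 132 and 138 FPKM in the KO-labelled libraries and 125.5, 125, 120.4 and 127.5 FPKM in WT libraries. The lowest KO-labelled library lies above the highest WT library. The means were 140.4 ± 7.22 FPKM in the KO-labelled animals and 124.5 ± 0.884 FPKM in WT animals (SD, n = 2 each), and the log2 difference of 0.17 (SE 0.05, 95% interval 0.05 to 0.29) did not pass (limma, adjusted p = 0.219). Gabpa, whose span overlaps that of Atp5j, averaged 7.46 ± 0.0618 FPKM in the KO-labelled animals and 7.64 ± 0.0972 FPKM in WT animals. Against the other 3 stalk genes of the same library, Atp5j was 0.261, 0.269, 0.248 and 0.253 in the KO-labelled libraries and 0.231, 0.230, 0.225 and 0.232 in WT libraries, again with no overlap. Atp5j was the member furthest above 0, so this ratio restates its difference and is no separate support.

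Atp5md, a small membrane subunit linked to dimers of the enzyme, stood at 337, 317, 314 and 304 FPKM in the KO-labelled libraries and 299, 286, 285 and 303 FPKM in WT libraries. The groups only just do not overlap. Its difference of 0.12 (SE 0.04) did not pass (limma, adjusted p = 0.30), and its span overlaps that of Taf5. The stalk sum over the F1 sum was 0.499 ± 0.00959 in the KO-labelled animals and 0.479 ± 0.00697 in WT animals (SD, n = 2 each), 4.29% higher, with no overlap between libraries (3.61% after quantile normalization). Most of this rests on Atp5j: without it the ratio was 0.397 in the KO-labelled animals and 0.389 in WT animals, 1.94% higher. The small membrane subunits gave 0.770 ± 0.0225 and 0.732 ± 0.00743 in the same order, 5.15% higher (3.13% without Atp5md, 4.08% after quantile normalization), and there the lowest KO-labelled library (0.741) lies below the highest WT library (0.747).

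**Figure D5:**
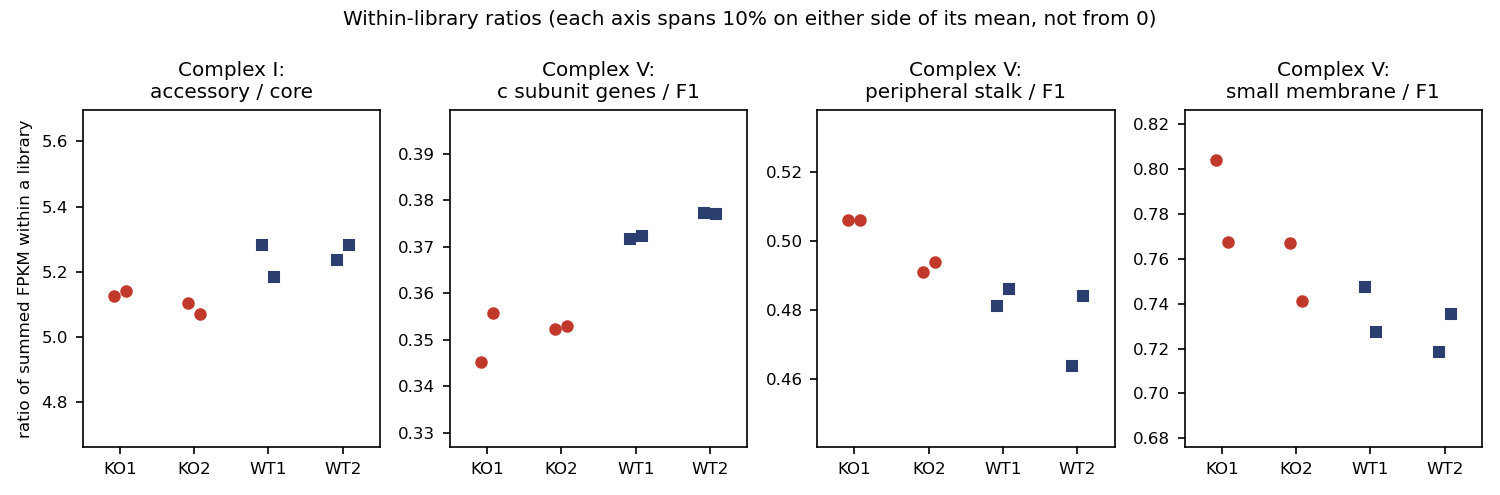
Ratios of summed FPKM within each library, free of any scaling by 1 factor per library, for the KO-labelled animals (circles) and WT animals (squares); each axis spans 10% on either side of its mean and does not start at 0. The accessory to core ratio of complex I and the c subunit to F1 ratio are lower in all 4 KO-labelled libraries, the stalk to F1 ratio is higher in all 4, and the small membrane ratio overlaps.

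The rest of the respiratory system was counted from lists of other genes. Of 13 mitochondrially encoded subunits 0 were called, with a median log2 difference of -0.04; the 2 with the smallest p were mt-Nd6 (-0.09) and mt-Atp6 (0.07). Of 14 nuclear complex IV genes 1 was called, lower. It was Cox8b, a cytochrome c oxidase isoform of heart and skeletal muscle, at 1.38 and 2.0 FPKM in the KO-labelled animals and 14.5 and 17.5 FPKM in WT animals. Its log2 difference was -2.66 (SE 0.14, limma adjusted p = 0.0372). Cox6b2, known from testis, followed at -1.17 and did not pass (limma, adjusted p = 0.0632). The list's median was 0.03. Both genes are low where the respiratory genes above are high, and both were lower in the same animals as the choroid plexus markers; the part of those cells was not tested.

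Among 30 assembly factors of complexes I, II, III and V, 0 were called and the median was -0.00. The smallest p belonged to Ndufaf6, for complex I (-0.17, limma adjusted p = 0.309), and Ttc19, for complex III (0.10, limma adjusted p = 0.328). Among 12 nuclear regulators of mitochondrial genes 0 were called, with Tfb2m, a mitochondrial transcription factor, at 10.1 ± 0.0306 FPKM in the KO-labelled animals and 8.87 ± 0.0348 FPKM in WT animals (SD, n = 2 each; log2 difference 0.17, limma adjusted p = 0.235). Pprc1, a coactivator of the PGC-1 family, was at -0.13. Of 14 citrate cycle enzymes 0 were called, with Suclg2, a subunit of succinyl-CoA ligase, at -0.25 (limma, adjusted p = 0.228) and Ogdh, of the oxoglutarate dehydrogenase complex, at -0.12. The 38 cytosolic ribosomal protein genes, also short and abundant, had 0 calls and a median of -0.02.

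Because FPKM divides by length and most of these mRNAs are short (median 707 bases, against 1898 over all genes tested), length was set beside the differences. Spearman's rho between median transcript length and log2 difference was 0.166 across the 66 genes and 0.0947 across protein-coding genes, as a description over genes that share libraries. Between mean level and difference it was -0.008 across the 66 genes and 0.328 across protein-coding genes. The spans of 32 of the 66 genes overlap another annotated gene, and no strand setting is given, so reads of such pairs cannot be told apart.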

How the data were processed

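Hippocampal RNA libraries (8; Trizol and total RNA, per the labels' protocols) were analysed from gene tables. The authors deposited FPKM with confidence limits and a status per gene, per the file headers; no value of a member had a status other than OK. The submitters' processing notes name mm10, Bowtie (version 1) and HISAT, without roles; the program behind the FPKM and how libraries were scaled are not stated in the labels or headers. No counts were used, so depth is unknown and no count test was run; the deposited limits lay a median of 5.40% (3.41% to 8.08%) from a member's FPKM. FPKM are relative, so abundant genes that change move the values of the rest.

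Technical replicates were averaged per animal (n = 2 a group). Genes reaching 0.5 FPKM in 2 animals were tested as log2(FPKM + 1), KO minus WT, with limma 3.58.1 (trended variance, R 4.3.3) and Benjamini-Hochberg adjustment at 0.05; this scale understates changes of low genes. The procedure was tested on simulated data. Coordinates are those of the tables, counted from 1, and matched GENCODE M21 for 67 of 67 rows. Promoters come from RefSeq (GRCm38.p6), matched by symbol and chromosome. Named were the member with the smallest p in each subunit group, the extremes of level in each complex, the core subunits of complex I, complex II, the c ring genes, and 2 genes of each other list. The values of 1 core subunit of complex I are not reported here; it stays in the counts and sums. The members and lists were chosen with earlier results of these data known. Alternatives were other scalings, pseudocount, filters, technical replicates, units, animals left out, a replicate block and another threshold.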

Additional observations from a re-analysis of the deposited data

Results flagged for a closer look

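In groups of 4 libraries, 1 library of 1 gene stood far from the other 3. Ndufb5, an accessory subunit of the membrane arm of complex I, was at 101.3 FPKM in the first library of KO1, while the other 3 KO-labelled libraries were at 85.4 to 87.2 FPKM and the WT libraries near 95.9 FPKM on average. This was 1 of 132 groups examined (0.758%); for 4 independent values chance alone flags about 1 in 20 groups, and these libraries are pairs of technical replicates, so that rate need not hold. The same library lacks usable values of mt-Co1. The cause was not tested.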

How the results depend on the processing

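With all 8 libraries as units, which treats technical replicates as animals, 6 members passed (Sdhc, Atp5g1, Atp5j, Ndufv3, Ndufa11 and Ndufa2), 2046 genes were called and 19 members did not overlap; under the other alternatives 0 members were called. Leaving out an animal leaves 1 in its group, assumed to vary like the other group, so the 0 calls there say nothing about stability. Genes called, 9 as reported, were 14 with a pseudocount of 0.1, 0 with no filter (3741 at an unadjusted p under 0.05 in limma), 17 with at least 1 FPKM in all animals, 19 and 35 with technical replicate 1 or 2 alone, 20 without the first library of KO1, 184 with animal number as a replicate block, 175 at an adjusted p of 0.1, and 0 to 224 leaving out 1 animal (lowest without WT1, highest without KO2). The numbers are not tied to shared litters or days by the labels, and with 2 pairs the correlation of their deviations was 0.107. Members not overlapping, 36 as reported, were 48 to 55 leaving out 1 animal. With 1 animal against 2, groups fail to overlap more easily for any gene. The share over all genes is not given for these settings, so the rise does not show more separation.

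The median over all members (-0.00879) was 0.0382 with median-of-ratios scaling, -0.0288 with quantile normalization and 0.0138 divided by the library sum. The sum of the first library of KO1 lacks mt-Co1, which raises its values in the last of these. In the same order the medians were 0.0255, -0.0518 and 0.00129 for complex I, 0.0512, -0.0164 and 0.0273 for complex II, 0.0535, -0.0248 and 0.0291 for complex III, and 0.0465, -0.0159 and 0.0222 for complex V, so the sign of each complex's median is set by the scaling. Summed FPKM, as KO over WT, was in the same order 1.02, 0.972 and 1.00 over all members (0.989 as reported), 1.01, 0.962 and 0.997 for complex I, 1.01, 0.964 and 0.996 for complex II, 1.02, 0.969 and 1.00 for complex III, and 1.03, 0.985 and 1.01 for complex V. Complex II had a median of -0.0143 with technical replicate 1 alone and sum ratios of 0.973 and 0.989 with replicate 1 or 2 alone; complex III had a median of -0.0125 with replicate 2 alone. Leaving out 1 animal moved the complex I median between -0.0549 and -0.00941. Of 27 named members 14 kept their sign under all 15 alternatives of the fit, among them Sdhc (-0.22 to -0.12), Atp5g1 (-0.24 to -0.12), Atp5j (0.12 to 0.22), Ndufv3 and Ndufa11; the 13 others were within 0.0252 of 0. No ratio within a library was among the planned results. Ratios without Atp5j, Atp5g1 or Atp5md, and under quantile normalization, were chosen after seeing the data. With the longest transcript, rho with length was 0.286. On 1 strand only, NRF1, GABP and YY1 letters stood in the windows of 16.4%, 9.09% and 16.4% of the 55 genes and any of them in those of 38.2%. The comparison of count normalizations was not run, since no counts were used. Depth limits could not be computed from FPKM; 2 animals a group limit the precision.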

Other observations

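The YY1 letters AAGATGGC sat at nearly the same place in most of the windows that hold them. In 8 of 10 genes they lay on the gene's own strand after the transcript start, beginning 23 to 39 bases from it, in Atp5j2, Ndufa3, Ndufa9, Ndufb8, Ndufc1, Ndufs4, Ndufs6 and Ndufs7. In Atp5j they began 88 bases before the start and in Atp5pb 3 bases before it, there on the other strand. The median log2 difference, KO label minus WT, was 0.03 over the members with these letters. Over the other members with a window it was -0.01. In the same order it was -0.002 and -0.014 for NRF1, 0.005 and -0.0175 for GABP, and 0.004 and -0.054 for any of the 3. The median was thus also higher with the letters for NRF1 and GABP, by small gaps. The set for any of the 3 includes the YY1 genes and is no separate case. Only the values as deposited were used, and no difference was tested.

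Names ending in -ps were outside the set by its rule. There were 12 such rows, 9 of them tested, and the highest was Ndufb1-ps at 53.0 FPKM, well above the next, Ndufa12-ps at 14.9 FPKM. The level of Ndufb1-ps is close to that of Sdhd, at a mean of 53.1 FPKM, and lies above that of Ndufb4, the lowest member.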
